A study of Mus musculus with 9 samples.

Results

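The glutathione transferases and the enzymes that remove peroxides, superoxide and reactive quinones were compared in the perigonadal white fat, the fat pad beside the gonads, of 3 mouse genotypes aged 4 months. A gene was taken in where its symbol named a glutathione transferase of the alpha, mu, pi, theta, kappa, omega, zeta or microsomal class (Gsta, Gstm, Gstp, Gstt, Gstk, Gsto, Gstz or Mgst), a numbered peroxiredoxin (Prdx), superoxide dismutase (Sod) or thioredoxin reductase (Txnrd), or was Cat, Nqo1, Hmox1, Gclc, Gclm, Gsr, Gpx3 or Gpx4. Of 14860 genes named by a single symbol on the array, 34 met this rule, 19 of them transferases, and each was read by 1 probe set. RefSeq lists 45 protein-coding mouse genes that fit the rule, and the 11 without such a probe set, among them Gclm, Txnrd1, Sod1, Prdx6 and Gstp1, were not analysed here. The rule itself reads gene symbols and no signal, though it was written with earlier results of these data known.

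There were 3 Affymetrix arrays each of G609G/G609G, LCS/LCS and wt fat. Lamins A and C are both products of the Lmna gene, and its G609G allele is known to give progerin, a shortened lamin A. The labels do not spell out LCS, which is known as an Lmna allele that yields lamin C without lamin A. Both alleles are known as knock-ins carried in every cell of the animal, no treatment was applied, and sex, strain and pooling of animals are not given in the sources used here. All values are log2 signals, a change is the difference between group means of log2 signal with its standard error (SE), and group means carry the SD over n = 3 arrays. A change was called where limma's Benjamini-Hochberg adjusted p, taken over all 23332 probe sets, was 0.05 or less.

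Glutathione is a tripeptide made from glutamate, cysteine and glycine, and the enzyme encoded by Gclc catalyses the first and rate-limiting step. Glutathione transferases join it to electrophiles such as lipid aldehydes, glutathione peroxidases spend it to reduce peroxides, and glutathione reductase restores it with NADPH. Many of these genes are known targets of the transcription factor NRF2, which binds the antioxidant response element. In adipocytes the alpha-class transferase encoded by Gsta4 is known for conjugating 4-hydroxynonenal, an aldehyde formed from oxidised lipids.

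The arrays of the genotypes differed in their median signal and little in their lower quartile. The lower quartile was 4.33 to 4.35 on the G609G/G609G arrays, 4.35 on the LCS/LCS arrays and 4.39 to 4.41 on the wt arrays. Why the medians differed was not tested. The median signal was 5.94 to 6.01 on the G609G/G609G arrays, 6.31 to 6.37 on the LCS/LCS arrays and 6.36 to 6.45 on the wt arrays. Each change was therefore also computed after quantile normalization and after centring every array on its median, and these with the deposited values are the 3 scalings named below. The median change of all 14860 genes in G609G/G609G against wt was -0.28 in the deposited values, 0.02 once quantile normalized and 0.14 once centred. The fat pads also differed in the markers of other tissues, given here as log2 of the summed signal of each list. The 9 measured skeletal muscle markers were all higher in G609G/G609G than in wt and summed to 15.09 to 15.16 in G609G/G609G, 11.03 to 11.06 in LCS/LCS and 9.75 to 9.90 in wt. Epididymis markers, 10 measured, summed to 13.52 to 13.57 in G609G/G609G, 15.66 to 15.68 in LCS/LCS and 15.85 to 15.89 in wt. Testis and germ cell markers, 12 measured, summed to 11.52 to 11.57 in G609G/G609G, 9.82 to 9.97 in LCS/LCS and 12.88 to 13.05 in wt. The other tissues therefore differed between all 3 genotypes and not in 1 direction. The tissue's own white adipocyte markers were present in every genotype, with 10 measured genes that summed to 15.09 to 15.13 in G609G/G609G, 15.86 to 15.89 in LCS/LCS and 15.68 to 15.69 in wt. Of these, 7 were called lower and 1 higher in G609G/G609G against wt (changes of -5.93 to 0.51), where 53.5% of all genes were lower. Under all 3 scalings 4 were lower and 1 higher. In LCS/LCS 5 were higher, where 12.8% of all genes were higher. Macrophage markers, 9 measured, summed to 11.61 to 11.74 in G609G/G609G, 13.12 to 13.22 in LCS/LCS and 12.65 to 12.82 in wt, and fibroblast markers, 11 measured, to 13.79 to 13.84 in G609G/G609G, 14.48 to 14.49 in LCS/LCS and 14.32 to 14.35 in wt. Both lists were thus lowest in G609G/G609G and highest in LCS/LCS. Liver markers, 7 measured, summed to 13.20 to 13.24 in G609G/G609G, 13.15 to 13.17 in LCS/LCS and 13.27 to 13.32 in wt, although 5 were lower and 1 higher in G609G/G609G (changes of -4.08 to 1.48) and 6 were lower in LCS/LCS (median change -0.65). The 3 measured erythrocyte markers summed to 7.63 to 7.75 in G609G/G609G, 8.14 in LCS/LCS and 8.99 to 9.09 in wt. The part that these tissues play in the results below was not tested, and in bulk tissue fewer cells of a type and less RNA per cell cannot be told apart.

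**Figure D1:**
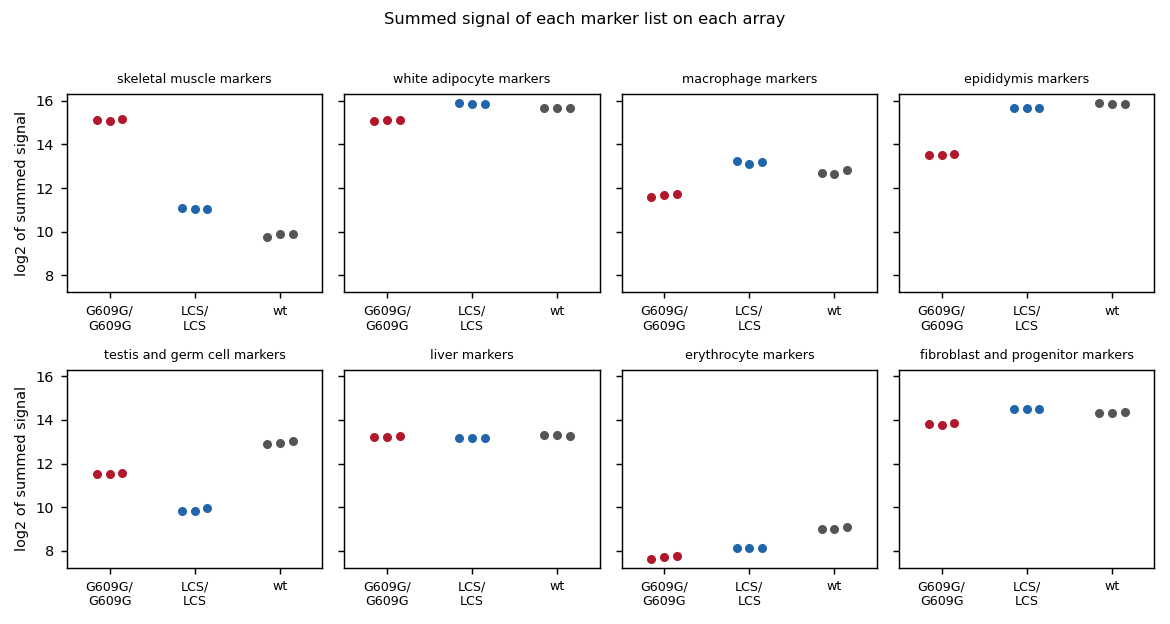
Summed signal of the marker lists on each array (log2 of summed signal), with G609G/G609G, LCS/LCS and wt shown in this order and 3 arrays each. Skeletal muscle markers are highest on the G609G/G609G arrays (15.09 to 15.16) and epididymis markers are lowest there (13.52 to 13.57), while testis and germ cell markers are lowest on the LCS/LCS arrays (9.82 to 9.97).

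In G609G/G609G fat most of the 34 genes were lower than in wt. With the values as deposited 25 fell and 4 rose, where 64.0% of all genes were called, 53.5% as lower and 10.5% as higher. The members' share of calls was thus 85.3%. With a fold of at least 1.5 required besides, 19 of the 34 were called and 35.2% of all genes. After quantile normalization 16 fell and 8 rose, where 4388 of all 14860 genes fell and 4237 rose. After median centring 16 fell and 12 rose, where 4108 of all genes fell and 6517 rose. Under all 3 scalings alike, 16 of the 34 fell and 4 rose, set against 25.5% of all genes lower and 10.2% higher. The median change over the 34 was -0.52 as deposited, against -0.28 for all genes, and it was -0.13 against 0.02 after quantile normalization and -0.09 against 0.14 after centring. The 4 genes that rose under every scaling were Gclc, Hmox1, Gsta3 and Gpx3. The 16 that fell under every scaling were 11 transferases together with Gpx4, Prdx4, Sod3, Txnrd3 and Nqo1.

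In LCS/LCS fat 9 of the 34 genes fell and 3 rose against wt, where 22.5% of all genes were called, 9.77% as lower and 12.8% as higher. The members' share of calls was 35.3%. With a fold of at least 1.5 besides, 6 of the 34 were called and 7.46% of all genes. Under all 3 scalings 8 fell and 3 rose, where 8.71% of all genes were lower and 12.0% higher. The split was 13 lower and 4 higher after quantile normalization, where 1817 of all 14860 genes were lower and 2288 higher. It was 8 lower and 6 higher after centring, where 1369 of all genes were lower and 3033 higher. The median change over the 34 genes was -0.06, against 0.03 for all genes. Of the 19 transferases 6 fell and none rose as deposited, and after median centring Gsto1 was called higher. Hmox1, Sod2 and Sod3 rose. Both comparisons use the same 3 wt arrays, so their values stand side by side here and are not independent of each other. Over the 3 genotypes, limma's moderated F test called 30 of the 34 genes, where it called 66.8% of all genes. The 4 that it did not call were Gstm3, Gstp3, Gstt2 and Cat.

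**Figure D2:**
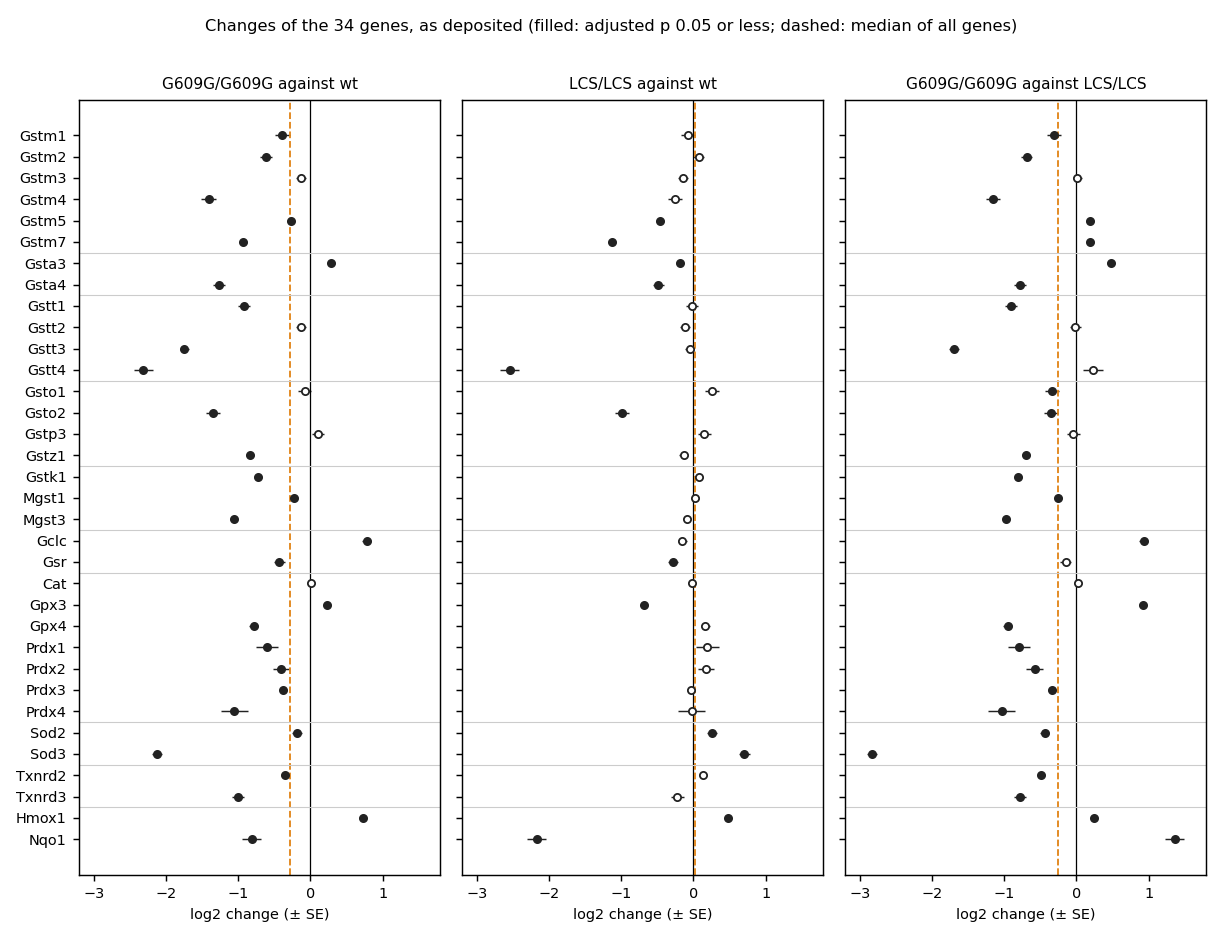
Log2 change of each of the 34 genes as deposited in the 3 comparisons, 1 panel each, with the genes grouped by role, bars giving the SE, filled points for called changes and a dashed line at the median of all genes. Against wt, 25 genes were called lower and 4 higher in G609G/G609G, and 9 lower and 3 higher in LCS/LCS.

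The mu class is the largest transferase family among the members. Of its 6 genes, 5 fell in G609G/G609G fat, and Gstm2, Gstm4 and Gstm7 did so under all 3 scalings. In LCS/LCS fat Gstm5 and Gstm7 fell. These genes lie close together in the genome and are very alike in sequence, so a probe set may read more than 1 of them. Gstm7 had 11.59, 11.58 and 11.59 on the G609G/G609G arrays, 11.40, 11.38 and 11.40 on the LCS/LCS arrays and 12.56, 12.51 and 12.48 on the wt arrays. Every array of either mutant lay below every wt array. The change was -0.93 (SE 0.05, adjusted p = 1.09e-06) in G609G/G609G and -1.12 (SE 0.05, adjusted p = 1.79e-06) in LCS/LCS, a 1.91-fold and a 2.18-fold difference.

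Gstm4 gave another pattern, with 7.33, 7.09 and 7.51 on the G609G/G609G arrays, 8.42, 8.55 and 8.42 on the LCS/LCS arrays and 8.68, 8.73 and 8.74 on the wt arrays. The G609G/G609G arrays stood well below all others. The change in G609G/G609G was -1.41 (SE 0.10, adjusted p = 8.94e-06), and that in LCS/LCS was -0.25 (SE 0.10, adjusted p = 0.146). Gstm2 averaged 9.48 ± 0.02 in G609G/G609G, 10.17 ± 0.04 in LCS/LCS and 10.10 ± 0.16 in wt. Gstm5 averaged 10.52 ± 0.04 in G609G/G609G, 10.33 ± 0.07 in LCS/LCS and 10.80 ± 0.02 in wt, a change of -0.46 in LCS/LCS that was called under every scaling. Its change in G609G/G609G was -0.27 as deposited but 0.15 after median centring, so that it has no settled direction there.

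Gstm1, the most studied gene of the class, had 7.32, 7.15 and 7.34 in G609G/G609G, 7.60, 7.45 and 7.69 in LCS/LCS and 7.63, 7.52 and 7.82 in wt. Its groups lay apart in G609G/G609G against wt and overlapped in LCS/LCS against wt. The change in G609G/G609G was -0.39 (SE 0.10, adjusted p = 0.0111) in the deposited values, 0.15 once quantile normalized and 0.04 once centred, and only the first was called. Gstm3 was dim, below the lower quartile of each array's signal, and averaged 3.78 ± 0.03 in G609G/G609G, 3.77 ± 0.06 in LCS/LCS and 3.91 ± 0.11 in wt, with no call as deposited. After centring, which moves all genes of a comparison by the same amount, it was called higher in G609G/G609G against wt (0.29). At so dim a signal this call cannot be told from a shift of background.

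RefSeq promoters, 250 bases before to 50 bases after the annotated start (GRCm38.p6), were at hand for 28 of the 34 members. Gclc, Hmox1, Gsta4, Sod3, Gsr and Gstt2 had none and were not searched. The core of the antioxidant response element, TGACNNNGC on either strand, was found in 5 of these, or 17.9%, while 14.0% of the 27025 genes of the promoter table hold it. NRF2, paired with a small MAF protein, is known to bind elements that hold this core. The windows around the 5 matches are shown with the core in capitals. They lie at chr1:21240444-21240492 (plus strand, Gsta3), chr3:107895792-107895840 (plus, Gstm5), chr3:107931715-107931763 (minus, Gstm7), chr6:138140451-138140499 (plus, Mgst1) and chr4:116685446-116685494 (plus, Prdx1), and each is written 5′ to 3′ along its gene.
Gsta3: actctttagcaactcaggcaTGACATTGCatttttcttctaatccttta
Gstm5: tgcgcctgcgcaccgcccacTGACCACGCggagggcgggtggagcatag
Gstm7: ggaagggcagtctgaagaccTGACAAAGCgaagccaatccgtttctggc
Mgst1: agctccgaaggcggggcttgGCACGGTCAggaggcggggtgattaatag
Prdx1: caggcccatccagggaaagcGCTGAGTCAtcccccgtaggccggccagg
The core starts 121, 42, 129, 56 and 133 bases before the start of Gsta3, Gstm5, Gstm7, Mgst1 and Prdx1, and in Mgst1 and Prdx1 it reads on the opposite strand. Of these genes Gsta3 rose and Gstm7 fell in G609G/G609G under every scaling, and the other 3 had no call in that comparison that all scalings shared. In LCS/LCS against wt Gstm5 and Gstm7 fell under every scaling. A match is a run of letters, not a measured binding site.

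The alpha-class genes moved in opposite directions in G609G/G609G fat. Gsta4 had 8.64, 8.71 and 8.93 on the G609G/G609G arrays, 9.56, 9.50 and 9.56 on the LCS/LCS arrays and 10.00, 9.97 and 10.10 on the wt arrays. The 3 genotypes did not overlap, with wt highest and G609G/G609G lowest. Its change was -1.26 (SE 0.08, adjusted p = 4.65e-06) in G609G/G609G, a 2.40-fold difference, and -0.48 (SE 0.08, adjusted p = 0.00444) in LCS/LCS. Gsta3 averaged 11.09 ± 0.04 in G609G/G609G, 10.61 ± 0.03 in LCS/LCS and 10.80 ± 0.03 in wt. Its rise of 0.29 in G609G/G609G (adjusted p = 0.00117) held under all 3 scalings. Its change of -0.19 in LCS/LCS (adjusted p = 0.0338) was not called after median centring, and leaving out any LCS/LCS or wt array ended the call as well.

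The theta-class genes, whose enzymes act on small halogenated and epoxide substrates, included the transferases with the largest falls in G609G/G609G. The reference gene table places Gstt3, Gstt1, Gstt4 and Gstt2 next to each other in that order. Gstt4 had 4.74, 5.13 and 4.70 on the G609G/G609G arrays, 4.72, 4.51 and 4.65 on the LCS/LCS arrays and 7.13, 7.03 and 7.35 on the wt arrays. All mutant arrays lay far below the wt arrays and the mutants overlapped each other. The change was -2.31 (SE 0.13, adjusted p = 2.5e-06) in G609G/G609G and -2.54 (SE 0.13, adjusted p = 7.59e-06) in LCS/LCS, a 4.97-fold and a 5.83-fold difference. Testis and germ cell markers were also lower in both mutants, 11 of 12 measured markers in each comparison with a median change of -1.45 in G609G/G609G and -2.50 in LCS/LCS, and their part in the fall of Gstt4 was not tested.

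Its neighbour Gstt3 was lower in G609G/G609G fat, with 7.57, 7.51 and 7.47 on the G609G/G609G arrays, 9.22, 9.11 and 9.30 on the LCS/LCS arrays and 9.27, 9.20 and 9.31 on the wt arrays. The LCS/LCS and wt arrays overlapped and the G609G/G609G arrays lay apart from both. The change was -1.74 (SE 0.07, adjusted p = 2.55e-07) in G609G/G609G against wt and -1.69 (SE 0.07, adjusted p = 2.19e-07) against LCS/LCS, while LCS/LCS against wt gave -0.05 (adjusted p = 0.711). Gstt1 averaged 8.99 ± 0.14 in G609G/G609G, 9.89 ± 0.05 in LCS/LCS and 9.91 ± 0.09 in wt, a change of -0.92 (adjusted p = 2.94e-05) in G609G/G609G. Gstt2, the last of the row, averaged 8.36 ± 0.05 in G609G/G609G, 8.37 ± 0.06 in LCS/LCS and 8.49 ± 0.14 in wt and was not called as deposited. It was called higher in G609G/G609G against wt after quantile normalization (0.315) and after centring (0.295). Neighbouring genes of 1 class thus gave 3 patterns, lower in both mutants (Gstt4), lower in G609G/G609G (Gstt3 and Gstt1) and not called as deposited (Gstt2).

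Among the other cytosolic transferases, Gsto2, an omega-class gene whose enzyme reduces dehydroascorbate, had 4.92, 4.77 and 4.74 in G609G/G609G, 5.21, 5.26 and 5.02 in LCS/LCS and 6.06, 6.08 and 6.32 in wt. Every mutant array lay below the wt arrays. It fell by 1.34 (SE 0.10, adjusted p = 9.22e-06) in G609G/G609G and by 0.99 (SE 0.10, adjusted p = 0.000285) in LCS/LCS on the log2 scale. Gstz1, the zeta-class enzyme of tyrosine breakdown, averaged 10.11 ± 0.09 in G609G/G609G, 10.81 ± 0.01 in LCS/LCS and 10.95 ± 0.03 in wt and fell in G609G/G609G (change -0.84, adjusted p = 5.91e-06). Gsto1 averaged 8.98 ± 0.18 in G609G/G609G, 9.31 ± 0.04 in LCS/LCS and 9.06 ± 0.11 in wt, and the dim Gstp3 averaged 4.27 ± 0.14 in G609G/G609G, 4.31 ± 0.09 in LCS/LCS and 4.16 ± 0.10 in wt. Neither was called against wt as deposited. In G609G/G609G against wt Gsto1 was called higher after quantile normalization (0.34) and centring (0.345), and Gstp3 after centring (0.53). At the dim signal of Gstp3 that call, too, cannot be told from a shift of background.

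The organelle and membrane transferases fell in G609G/G609G and were not called in LCS/LCS as deposited. Mgst3, a microsomal enzyme of the leukotriene pathway, had 9.35, 9.32 and 9.35 on the G609G/G609G arrays, 10.33, 10.30 and 10.31 on the LCS/LCS arrays and 10.40, 10.37 and 10.44 on the wt arrays. The arrays of each genotype lay close together, and G609G/G609G stood apart. Its change in G609G/G609G was -1.06 (SE 0.05, adjusted p = 5.23e-07), a 2.09-fold difference. Gstk1, which is found in mitochondria and peroxisomes, averaged 10.04 ± 0.03 in G609G/G609G, 10.85 ± 0.05 in LCS/LCS and 10.77 ± 0.04 in wt, with a change of -0.73 (adjusted p = 7.08e-06) in G609G/G609G. Mgst1, the microsomal transferase that guards membranes, had 12.05, 12.07 and 12.09 in G609G/G609G, 12.31, 12.29 and 12.36 in LCS/LCS and 12.34, 12.27 and 12.27 in wt. Its change of -0.22 (adjusted p = 0.00469) in G609G/G609G was 0.09 after quantile normalization and 0.20 after centring, so its direction rests on the scaling.

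Among the 19 transferases as a group, 14 fell and 1 rose in G609G/G609G as deposited, and 11 fell and 1 rose under all 3 scalings. Of the 15 other enzymes 11 fell and 3 rose as deposited, and 5 fell and 3 rose under all 3 scalings. The share that fell was alike only as deposited, 73.7% of the transferases and 73.3% of the others, beside 53.5% of all genes. Under all 3 scalings it was 57.9% of the transferases and 33.3% of the others, beside 25.5% of all genes. In LCS/LCS 6 transferases fell, and of the others 3 fell and 3 rose, beside 9.77% of all genes lower and 12.8% higher.

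**Figure D3:**
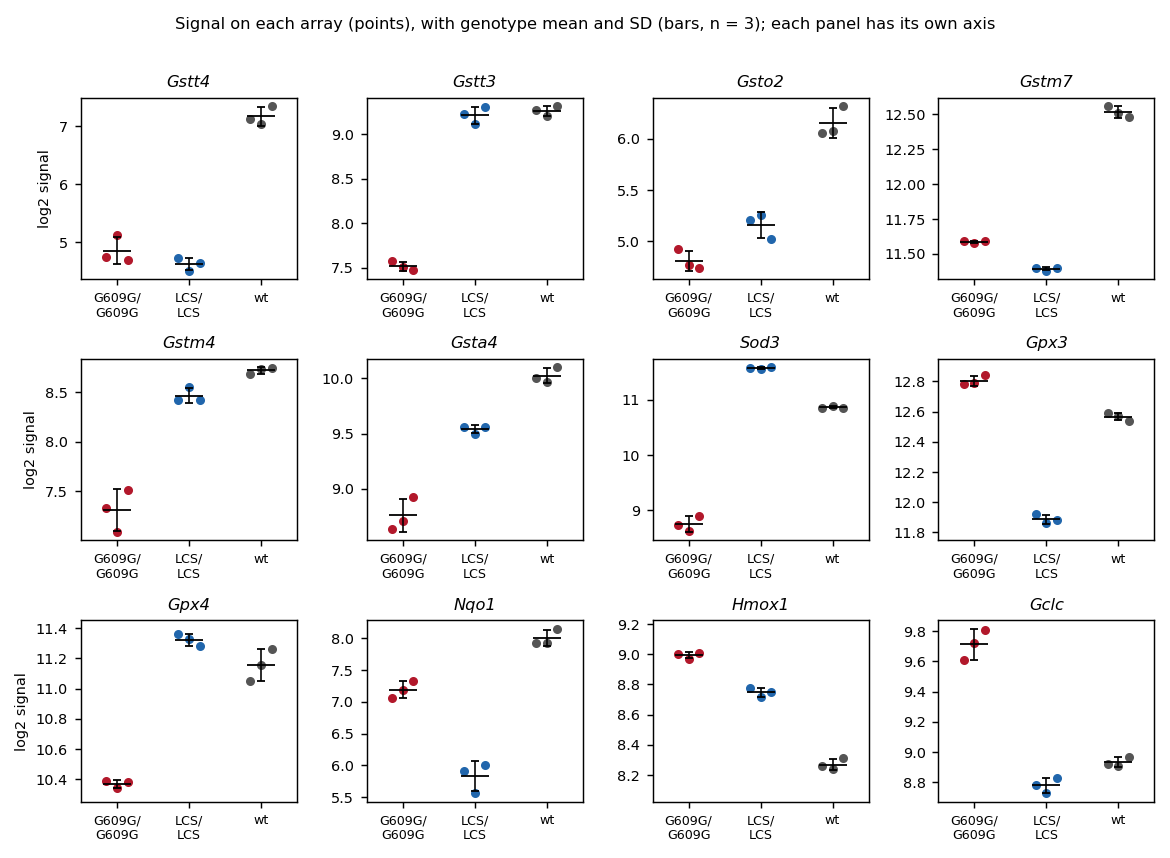
Signal (log2) of 12 of the genes on every array, 1 panel per gene, with G609G/G609G, LCS/LCS and wt from left to right, a point per array and a bar at the group mean with its SD. Each panel has its own axis. Gstt4, Gsto2 and Gstm7 are lower in both mutants, Gstt3 and Gstm4 are lowest in G609G/G609G, and Sod3 lies at 8.62 to 8.90 in G609G/G609G, 11.56 to 11.59 in LCS/LCS and 10.86 to 10.89 in wt.

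Glutathione supply was represented by Gclc, the catalytic subunit of the first step, and by Gsr, the reductase. Gclc had 9.61, 9.72 and 9.81 on the G609G/G609G arrays, 8.78, 8.73 and 8.83 on the LCS/LCS arrays and 8.92, 8.91 and 8.97 on the wt arrays. All G609G/G609G arrays were above all others. It rose by 0.78 (SE 0.06, adjusted p = 1.76e-05, 1.72-fold) in G609G/G609G, and the change was 1.19 after quantile normalization. In LCS/LCS the change was -0.15 (adjusted p = 0.16). Gsr had 8.69, 8.72 and 8.79 in G609G/G609G, 8.90, 8.84 and 8.90 in LCS/LCS and 9.06, 9.11 and 9.32 in wt. The wt arrays were highest and did not overlap the mutants. Its change of -0.43 in G609G/G609G (adjusted p = 0.00142) became -0.01 after quantile normalization and after centring and was then not called. In LCS/LCS the change was -0.28 (adjusted p = 0.0352), which was called under each scaling but was lost when any of 6 single arrays was left out (adjusted p = 0.054 to 0.108).

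The glutathione peroxidases moved in opposite directions. Gpx3 encodes the secreted plasma peroxidase and is abundant in fat. It had 12.78, 12.79 and 12.84 on the G609G/G609G arrays, 11.92, 11.86 and 11.88 on the LCS/LCS arrays and 12.59, 12.57 and 12.54 on the wt arrays. The 3 genotypes did not overlap, with G609G/G609G highest and LCS/LCS lowest. Its change was 0.24 (SE 0.05, adjusted p = 0.003) in G609G/G609G and -0.68 (SE 0.05, adjusted p = 4.2e-05, 1.60-fold) in LCS/LCS, each under all 3 scalings. Gpx4, which reduces lipid peroxides inside membranes, had 10.39, 10.34 and 10.38 in G609G/G609G, 11.36, 11.33 and 11.28 in LCS/LCS and 11.05, 11.16 and 11.26 in wt. Here the G609G/G609G arrays were lowest, at -0.79 (SE 0.06, adjusted p = 1.65e-05, 1.73-fold) against wt, and LCS/LCS gave 0.17 (adjusted p = 0.126). Gpx4 is also a known product of male germ cells. Testis and germ cell markers fell in both mutants and were lowest in LCS/LCS, and their part in the change of Gpx4 was not tested.

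Peroxiredoxins, which reduce hydrogen peroxide with electrons from thioredoxin, were lower in G609G/G609G as deposited in all 4 measured genes, and Prdx4 alone under every scaling. Prdx4, the enzyme of the endoplasmic reticulum, had 6.29, 6.59 and 7.14 in G609G/G609G, 7.64, 7.71 and 7.78 in LCS/LCS and 7.70, 7.66 and 7.83 in wt. The G609G/G609G arrays spread widely (SD 0.43) yet stayed below all others, and the change was -1.06 (SE 0.19, adjusted p = 0.00156). Prdx3, the mitochondrial member, had 9.83, 9.89 and 9.96 in G609G/G609G, 10.25, 10.20 and 10.25 in LCS/LCS and 10.26, 10.24 and 10.30 in wt, a change of -0.37 (adjusted p = 0.000439) that was 0.02 after quantile normalization. Prdx1 and Prdx2, in the cytosol, averaged 6.90 ± 0.26 and 5.29 ± 0.10 in G609G/G609G, 7.70 ± 0.03 and 5.87 ± 0.19 in LCS/LCS and 7.50 ± 0.25 and 5.70 ± 0.16 in wt. Their changes in G609G/G609G, -0.60 and -0.41, were called as deposited alone. No peroxiredoxin was called in LCS/LCS against wt.

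Cat, the peroxisomal catalase, was level across the genotypes as deposited. It had 12.89, 12.88 and 12.89 in G609G/G609G, 12.87, 12.84 and 12.87 in LCS/LCS and 12.86, 12.88 and 12.90 in wt. Both mutants overlapped wt, while the G609G/G609G arrays lay just above the LCS/LCS arrays. The change in G609G/G609G was 0.01 (SE 0.04, adjusted p = 0.913) as deposited, and after quantile normalization and centring it was called higher at 0.25 and 0.43. The brightest probe sets of the 9 arrays read 13.61 to 13.84, and whether Cat was close to saturation was not tested.

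Sod3, the extracellular superoxide dismutase, had the widest span of the 34 genes between the mutants. It had 8.73, 8.62 and 8.90 on the G609G/G609G arrays, 11.58, 11.56 and 11.59 on the LCS/LCS arrays and 10.86, 10.89 and 10.86 on the wt arrays. The 3 genotypes stood far apart, with wt between the mutants. Sod3 fell by 2.12 (SE 0.07, adjusted p = 1.61e-07, 4.35-fold) in G609G/G609G and rose by 0.71 (SE 0.07, adjusted p = 0.00035, 1.63-fold) in LCS/LCS, both under every scaling. Fibroblast markers were also lower in G609G/G609G (10 of 11, median change -1.04) and higher in LCS/LCS (7 of 11, median change 0.25). So were macrophage markers (8 of 9, median -1.15, and 7 of 9, median 0.36). White adipocyte markers gave 7 of 10 lower and 1 higher in G609G/G609G, and 5 of 10 higher in LCS/LCS. Of all genes 53.5% were lower in G609G/G609G and 12.8% higher in LCS/LCS. The part of these markers in the change of Sod3 was not tested. Sod2, the mitochondrial dismutase, had 10.68, 10.81 and 10.83 in G609G/G609G, 11.30, 11.16 and 11.18 in LCS/LCS and 11.03, 10.92 and 10.92 in wt. LCS/LCS lay above wt, with a change of 0.26 (adjusted p = 0.0342) that was called under every scaling and lost when any of 5 single arrays was left out (adjusted p = 0.0581 to 0.126). In G609G/G609G the change of -0.18 (adjusted p = 0.0493) turned to 0.18 and 0.24 under the other scalings, and leaving out 8 of the 9 arrays 1 at a time ended the call.

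The thioredoxin reductases, which keep thioredoxin reduced with NADPH, fell in G609G/G609G as deposited. Txnrd3, the reductase known best from testis, had 6.59, 6.58 and 6.74 in G609G/G609G, 7.48, 7.39 and 7.40 in LCS/LCS and 7.57, 7.55 and 7.81 in wt. The G609G/G609G arrays lay below all others, at -1.01 (SE 0.08, adjusted p = 1.97e-05, 2.01-fold) against wt. In LCS/LCS the change was -0.22 (adjusted p = 0.127) as deposited, and quantile normalization made it a call (-0.21, adjusted p = 0.0177). Testis and germ cell markers were lower in both mutants and lowest in LCS/LCS, with a median change of -1.45 in G609G/G609G and -2.5 in LCS/LCS. Their part in the change of Txnrd3 was not tested. Txnrd2, the mitochondrial reductase, averaged 5.67 ± 0.05 in G609G/G609G, 6.15 ± 0.02 in LCS/LCS and 6.02 ± 0.04 in wt, and its change of -0.36 in G609G/G609G was called as deposited alone.

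Nqo1 and Hmox1, often measured as readouts of NRF2, did not move together. Nqo1, a quinone reductase, had 7.06, 7.19 and 7.32 on the G609G/G609G arrays, 5.92, 5.56 and 6.01 on the LCS/LCS arrays and 7.92, 7.93 and 8.15 on the wt arrays. Both mutants lay below wt and LCS/LCS lay lowest, with no overlap. It fell by 0.81 (SE 0.13, adjusted p = 0.0009, 1.75-fold) in G609G/G609G and by 2.17 (SE 0.13, adjusted p = 1.77e-05, 4.50-fold) in LCS/LCS. Hmox1, the inducible haem oxygenase, had 9.0, 8.97 and 9.01 in G609G/G609G, 8.78, 8.72 and 8.75 in LCS/LCS and 8.26, 8.24 and 8.31 in wt. It lay above wt in both mutants, by 0.72 (SE 0.05, adjusted p = 5.08e-06, 1.65-fold) in G609G/G609G and by 0.48 (SE 0.05, adjusted p = 0.000284) in LCS/LCS. Macrophages are a known source of Hmox1. Of 9 measured macrophage markers 8 were lower in G609G/G609G and 7 were higher in LCS/LCS, and their part in the change of Hmox1 was not tested.

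**Figure D4:**
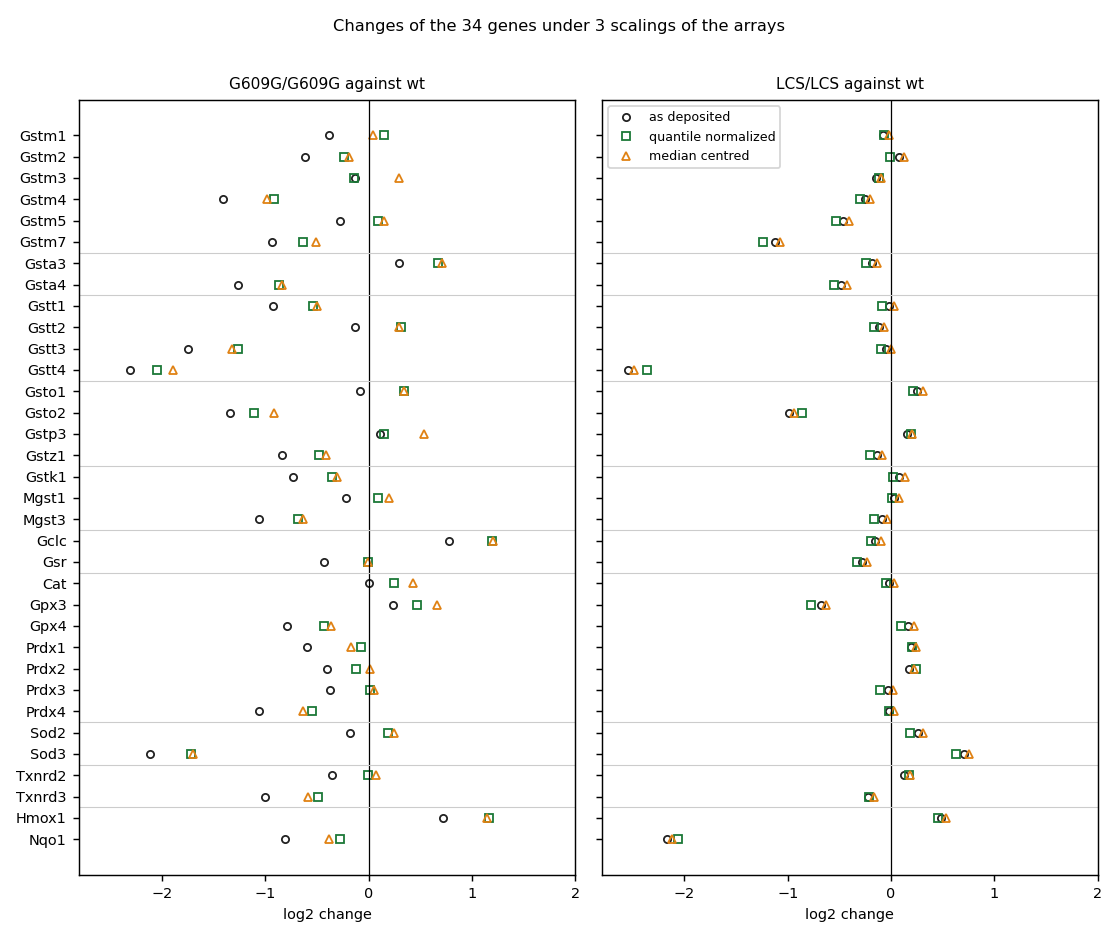
Log2 change of each of the 34 genes in G609G/G609G against wt and in LCS/LCS against wt under the 3 scalings (as deposited, quantile normalized, median centred). In G609G/G609G the other scalings move the genes upward, so 25 lower and 4 higher calls become 16 and 8 after quantile normalization and 16 and 12 after centring. Over all 14860 genes 7944 lower and 1560 higher calls become 4388 and 4237, and 4108 and 6517.

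The mutants were also compared directly. In G609G/G609G against LCS/LCS 21 of the 34 genes fell and 7 rose, where 62.3% of all genes were called, 51.1% as lower and 11.3% as higher. Under all 3 scalings 12 fell and 7 rose, where 37.1% of all genes were called alike, 26.2% as lower and 10.9% as higher. With a fold of at least 1.5 besides, 16 of the 34 were called and 36.0% of all genes. After quantile normalization the split was 15 lower and 12 higher, where 4391 of all 14860 genes were lower and 4131 higher. After centring it was 13 and 13, where 4545 of all genes were lower and 6174 higher. The median change of the 34 genes was -0.35, and that of all genes -0.26. The 7 that were higher in G609G/G609G under every scaling were Gclc, Gpx3, Gsta3, Gstm5, Gstm7, Hmox1 and Nqo1. The call of Gstm5 was lost without LCS/LCS replicate 2 (adjusted p = 0.0644) or replicate 3 (adjusted p = 0.0582). Sod3 differed by -2.83 (SE 0.07, adjusted p = 2.8e-08), a 7.09-fold lower signal in G609G/G609G. Gclc was higher in G609G/G609G by 0.93 (adjusted p = 5.62e-06), Gpx3 by 0.92 (adjusted p = 1.13e-06) and Nqo1 by 1.36 (adjusted p = 3.95e-05). Gstt4 did not pass the test at 0.23 (adjusted p = 0.185) and was called higher after median centring, at 0.60.

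The surrounding redox genes were read from 8 lists with 107 genes, of which 95 were measured. In G609G/G609G 62 of the 95 fell and 17 rose as deposited, where 53.5% of all genes fell and 10.5% rose. After quantile normalization 38 fell and 32 rose, after centring 35 fell and 36 rose, and under all 3 scalings 34 fell and 17 rose, where 25.5% of all genes fell and 10.2% rose. In LCS/LCS 28 rose and 7 fell, where 12.8% of all genes rose and 9.77% fell, and 25 rose and 7 fell under all 3 scalings. These shares of all genes are the background of each list below, for counts as deposited and under all 3 scalings. For LCS/LCS the shares under all 3 scalings were 12.0% higher and 8.71% lower. After quantile normalization 4237 of the 14860 genes rose and 4388 fell in G609G/G609G, and 2288 rose and 1817 fell in LCS/LCS. After centring 6517 rose and 4108 fell in G609G/G609G, and 3033 rose and 1369 fell in LCS/LCS. In G609G/G609G against LCS/LCS 67 fell and 10 rose. The median change of the 95 genes was -0.47 in G609G/G609G and 0.10 in LCS/LCS, where that of all genes was -0.28 and 0.03. Each gene named from these lists below was called under all 3 scalings.

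The 11 genes of glutathione synthesis, supply and turnover gave 4 higher and 6 lower in G609G/G609G as deposited. The balance turned to 6 higher and 3 lower after quantile normalization and after centring, with 4 higher and 3 lower under all 3 scalings. In LCS/LCS 4 rose and 2 fell, and 2 rose and 2 fell under all 3. Slc7a11, the cystine importer, fell in both mutants. Its change was -2.26 (SE 0.10, adjusted p = 4.73e-07) in G609G/G609G and -2.04 (SE 0.10, adjusted p = 4.09e-06) in LCS/LCS. Chac1, which breaks glutathione down, rose by 1.42 in G609G/G609G and by 0.36 in LCS/LCS. Cbs, which feeds cysteine synthesis, rose by 1.03 in G609G/G609G and fell by 0.61 in LCS/LCS. Other members went the opposite way in G609G/G609G and were chosen after their values were seen. Chac2 and Ggct, which also act in glutathione breakdown, fell by 1.01 and 1.25, and Slc3a2, the partner subunit of the importer, rose by 0.30.

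Of 6 other glutathione peroxidases 4 fell in G609G/G609G and 3 rose in LCS/LCS. The changes of Gpx5 and Gpx6 in G609G/G609G were -8.00 (SE 0.32, adjusted p = 3.87e-07) and -2.95. Gpx5 is the epididymal peroxidase and one of the epididymis markers, of which 10 of 10 measured fell in G609G/G609G, and their part in its change was not tested. In LCS/LCS Gpx6 rose by 0.59 and Gpx7 by 0.57. Among 17 thioredoxin, glutaredoxin and sulfur repair partners, 9 fell and 2 rose in G609G/G609G as deposited. The direction rests on the scaling, with 2 lower and 8 higher after quantile normalization, 2 lower and 9 higher after centring, and 2 lower and 2 higher under all 3. In LCS/LCS 2 rose. Selenof and Msrb3 had the largest called falls in G609G/G609G, at -0.77 and -0.58, and in LCS/LCS Selenow rose by 0.43 and Msrb1 by 0.31.

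Of the 14 genes listed as NRF2 and BACH regulators 6 rose and 6 fell in G609G/G609G as deposited, with a median change of -0.01. The list also holds Trp53inp1, Sesn1, Sesn2 and Sesn3, so its counts and medians are not those of NRF2 and BACH partners alone. Trp53inp1, Sesn1 and Sesn2 were among those that rose, and Sesn3 among those that fell. After quantile normalization and after centring 8 were higher and 3 lower, with medians of 0.46 and 0.41, and 6 were higher and 3 lower under all 3 scalings. In LCS/LCS 3 rose and 1 fell. The largest rises in G609G/G609G, Trp53inp1 at 3.05 and Sesn1 at 2.17, were those of genes known as targets of p53, and Trp53inp1 fell by 0.50 in LCS/LCS. Nfe2l3, a relative of the NRF2 gene, and Sesn3 fell by 1.83 and 1.48 in G609G/G609G. The NRF2 gene itself, Nfe2l2, was named after its values were seen. Its change in G609G/G609G was -0.63 (SE 0.06, adjusted p = 6.42e-05) as deposited, -0.24 once quantile normalized and -0.21 once centred. In LCS/LCS Mafk, which encodes a small MAF partner of NRF2, rose by 0.76.

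Of 11 genes of NADPH supply 9 fell and 2 rose in G609G/G609G, 7 and 2 of them under all 3 scalings, and 5 rose and 2 fell in LCS/LCS. Idh1 and Mthfd2 fell by 1.33 and 1.20 in G609G/G609G while Aldh1l1 rose by 1.08. In LCS/LCS Pgd and H6pd, of the pentose phosphate route, rose by 0.75 and 0.59, and Mthfd2 fell by 0.88. Quinone and aldehyde enzymes and conjugate exporters, 15 genes, gave 14 lower in G609G/G609G, of which 8 were lower under all 3 scalings, led by the exporter Abcc3 (-1.94) and Nqo2 (-1.39). After centring 8 were lower and 2 higher. In LCS/LCS 2 of the 15 rose and 1 fell, and 8 rose after centring, with Glo1 at 0.65 and Abcc3 at -0.87.

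Haem and metal handling, 10 genes, gave 7 lower and 2 higher in G609G/G609G as deposited, 5 and 3 after quantile normalization, 3 and 3 after centring, and 3 and 2 under all 3 scalings. In LCS/LCS 3 rose and 1 fell. The metallothionein genes Mt1 and Mt2 rose by 1.30 and 0.43 in G609G/G609G, and Blvra, which works downstream of Hmox1, fell by 1.20. Mt1 rose by 0.43 in LCS/LCS as well. Of 11 genes whose products make oxidants, 7 fell and 1 rose in G609G/G609G as deposited, 5 fell and 4 rose after centring, and 4 fell and 1 rose under all 3 scalings. In LCS/LCS 6 rose under each scaling. Maoa and Cybb fell by 1.83 and 1.70 in G609G/G609G while Xdh, the xanthine dehydrogenase gene, rose by 1.10. In LCS/LCS Ncf1 and Cyba, subunits of the phagocyte NADPH oxidase, rose by 0.67 and 0.51, beside 7 of 9 macrophage markers that were higher, whose part in this was not tested.

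**Figure D5:**
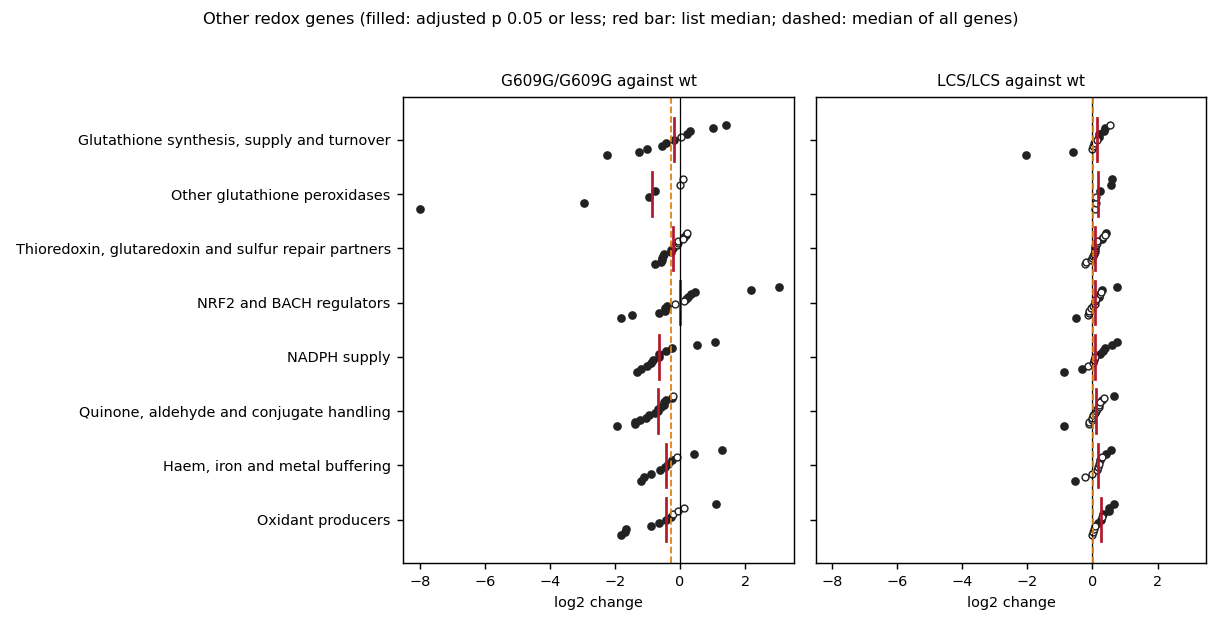
Log2 change of the 95 measured genes of the 8 redox lists in G609G/G609G against wt and in LCS/LCS against wt as deposited, 1 point per gene, filled where called, with a red bar at each list's median and a dashed line at the median of all genes. In G609G/G609G 62 genes were called lower and 17 higher, and in LCS/LCS 7 lower and 28 higher.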

How the data were processed

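Total RNA from snap-frozen perigonadal fat was labelled with biotin for Affymetrix arrays, per the labels' protocols. The authors deposited 1 log2 signal per probe set and array. The log base was inferred from the range of values. Background correction, summarisation and scaling are not given in the sources used here, and mm9 is the build in the submitters' processing notes. The design text speaks of 10 samples and biological replicates, and 9 arrays were used here. No label ties an array to its own animal, so p-values measure the spread between arrays, which may be technical in part. Precision is limited by the 3 arrays per group.

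Groups and replicate numbers came from the sample titles. Of 23332 probe sets, 14996 had 1 gene symbol, 1019 several and 7317 none listed in the platform annotation, and 6 probe sets that name a family member beside another gene were left out. A gene was read from its brightest probe set. Limma 3.58.1 in R 4.3.3 fitted all 9 arrays with a mean per genotype and empirical Bayes moderation, with two-sided tests and adjustment over all probe sets. The fit was tested on simulated data. Without detection calls, low signal cannot be told from background.

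The members and gene lists were chosen with earlier results of these data known. Array values are printed for 13 fixed genes and for members called with a log2 change of at least 1, and up to 2 genes with the largest called rise and fall are named per list. Alternatives were quantile normalization, median centring, the methods' t-test, a fold minimum of 1.5, trended robust moderation, leaving out the dimmest 25% of probe sets, the mean of a gene's probe sets, a replicate block and leaving out each array. Promoters are RefSeq's (GRCm38.p6). Python 3.11.15, pandas 2.3.3 and matplotlib 3.10.9 were used.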

Additional observations from a re-analysis of the deposited data

How the results depend on the processing

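Of the members, 29, 12 and 28 were called in G609G/G609G against wt, LCS/LCS against wt and G609G/G609G against LCS/LCS. A fold of at least 1.5 kept 19, 6 and 16, as did the methods' t-test with that fold. Over all probe sets the calls numbered 12307, 4005 and 12147, the fold minimum gave 6934, 1385 and 7184, and the methods' t-test with it gave 6650, 1487 and 6933. Leaving out each array gave 27 to 30, 9 to 12 and 25 to 29 member calls and 11118 to 12428, 2669 to 4805 and 10747 to 12202 over all probe sets, with 2669 without LCS/LCS replicate 3. A replicate block gave 28, 10 and 28 member calls. It lost Sod2 (adjusted p = 0.0819) in G609G/G609G against wt, and Gsta3 (0.055) and Sod2 (0.0691) in LCS/LCS against wt. Correlations of same-numbered deviations were -0.071 to 0.23, so the numbers were not taken as pairs. Some changes that were negative as deposited turned positive. In G609G/G609G against wt after quantile normalization these were Gstm1 0.15, Gstm5 0.089, Gstt2 0.32, Gsto1 0.34, Mgst1 0.092, Prdx3 0.018 and Sod2 0.18. After centring they were Gstm1 0.038, Gstm3 0.29, Gstm5 0.15, Gstt2 0.30, Gsto1 0.35, Mgst1 0.20, Prdx2 0.018, Prdx3 0.052, Sod2 0.24 and Txnrd2 0.068. In G609G/G609G against LCS/LCS quantile normalization turned Gstm1 0.22, Gstt2 0.48, Gsto1 0.13, Mgst1 0.085, Gsr 0.32 and Prdx3 0.13, and centring turned Gstm1 0.063, Gstt2 0.36, Gsto1 0.04, Gsto2 0.02, Gstp3 0.33, Mgst1 0.12, Gsr 0.23 and Prdx3 0.033. Centring moves every gene of a comparison by the same amount, set by the array medians, so negative changes smaller than that amount turn positive. Why the medians differed was not tested. In LCS/LCS against wt no member changed sign with a call as deposited or under the alternative. Without any call, centring turned Gstt1 0.028, Gstt3 0.0017, Prdx3 0.018, Prdx4 0.032 and Cat 0.032, and quantile normalization turned Gstm2 from 0.073 to -0.0072. Signal over background was not known, which limits the dim Gstm3 and Gstp3.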

Other observations

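The members did not spread evenly over the replicates of a genotype. Replicate 3 alone gave the highest signal of its group for 22 of the 34 genes in G609G/G609G and for 25 in wt, and for 11 in LCS/LCS. The same arrays had the highest array median of their group in G609G/G609G (6.01) and wt (6.45), whereas LCS/LCS replicate 3 had 6.34. The highest array was counted for the members alone, so whether other genes did the same was not tested.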
